A study of Mus musculus with 2 samples.

Results

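Interferon-responding A20 cells were the tumour cells that carried a signature of interferon-induced genes in 2 single-cell RNA libraries of mouse A20 tumours. Which type of interferon the cells had met was not tested. A20 is a BALB/c B cell lymphoma line. Barcodes were kept with under 10% mitochondrial UMIs, at least 200 genes, at least 1 Cd79a UMI and 0 UMIs of Cd3d, Cd3e, Cd3g and Lyz2. UMIs, or unique molecular identifiers, are counts of captured RNA molecules. A kept cell was called responding when Isg15, Ifit1, Ifit3, Mx1, Rtp4, Usp18 and Oasl1 together gave at least 4 UMIs, here called response UMIs. The rule found 165 responding cells among 3945 A20 cells and 4975 barcodes. They comprised 152 of 1754 TAK-981 cells and 13 of 2191 vehicle cells.

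The TAK-981 arm came from Balb/c mice that carried A20 tumours in the left flank and received 7.5 mg/kg TAK-981, an inhibitor of the SUMO-activating enzyme, by the intravenous route. The vehicle arm received 20% HPbCD in place of the drug. In both arms 1000000 cells had been injected under the skin, treatment began at about 300 mm3, and tumours were taken after 8 h, passed through a 70 µm filter and cleared of dead cells. Each arm is 1 library of a 5' droplet assay, the number of mice in it is not given in the sources used here, and A20 is 1 line, so there is no replicate check, no test was run, and treatment cannot be told apart from any other difference between the 2 libraries. All ratios carry 95% exact intervals that cover counting error only and not the spread between cells, tumours or libraries.

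Type I interferons bind the receptor pair IFNAR1 and IFNAR2, whose kinases switch on the transcription factor complex ISGF3. This complex, which includes IRF9, binds the interferon-stimulated response element in the promoters of interferon-stimulated genes. Their products block viral replication, raise antigen presentation and feed back on the receptor. SUMO is a small protein that is attached to other proteins, and SUMOylation is known to restrain interferon production and interferon-stimulated genes.

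Responding cells made up 8.67% of TAK-981 A20 cells (95% exact interval 7.39 to 10.1%) and 0.593% of vehicle A20 cells (0.316 to 1.01%). Cells with 1 to 3 response UMIs made up 21.6% of TAK-981 cells (379) and 12.2% of vehicle cells (268). Cells with 0 response UMIs, here called zero cells, numbered 1223 for TAK-981 (69.7%) and 1910 for vehicle (87.2%). At the threshold, 31 TAK-981 and 5 vehicle cells held exactly 4 response UMIs, and 35 TAK-981 and 9 vehicle cells held exactly 3 and were left out. The 2 libraries shared 11 barcodes, of which 1 was a responding cell in the TAK-981 library and 0 were responding in both.

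A fixed count of 4 UMIs is met more easily in a deep cell, and responding cells were deeper than zero cells. Their median UMI total was 21399.5 against 15002 in zero cells of the TAK-981 library, and 29488 against 20920.5 in zero cells of the vehicle library. The responding share of TAK-981 cells was 5.91% below 10000 UMIs (29 of 491 cells), 7.07% from 10000 to 20000 (43 of 608), 12.0% from 20000 to 30000 (44 of 366) and 12.5% from 30000 (36 of 289). In the same bins the vehicle share was 0.275% (1 of 363), 0.166% (1 of 603), 0.923% (5 of 542) and 0.878% (6 of 683). With every A20 cell thinned at random to 4000 UMIs, which left out no cell, 41 TAK-981 cells (2.34%, 1.68 to 3.16%) and 2 vehicle cells (0.0913%, 0.0111 to 0.329%) kept at least 4 response UMIs. The TAK-981 share was thus the higher in each depth bin and at equal depth. The median mitochondrial share was 2.30% in responding and 2.68% in zero cells of the TAK-981 library, and 1.48% in responding and 2.08% in zero cells of the vehicle library.

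**Figure D1:**
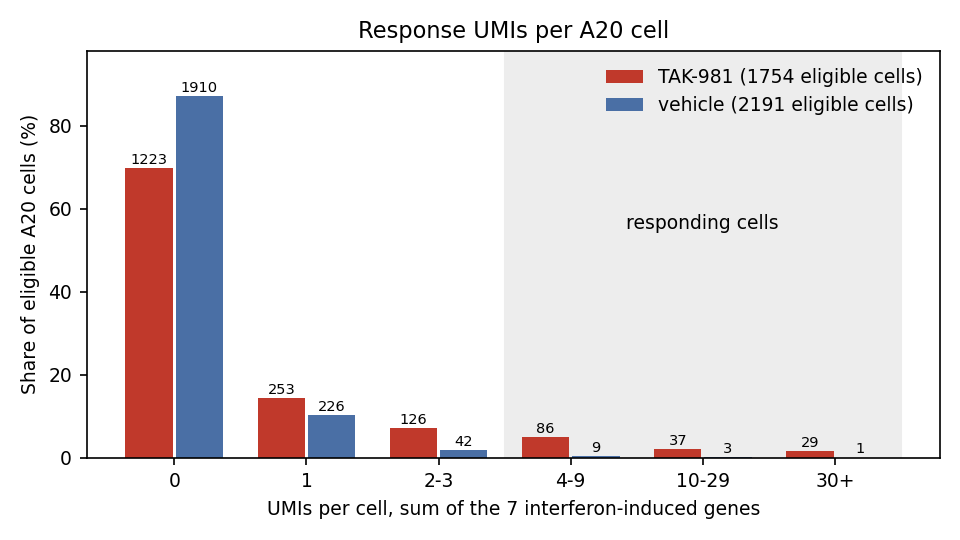
Share of A20 cells (percent, vertical axis) by the number of response UMIs in the cell (horizontal axis), with TAK-981 bars left of vehicle bars and the number of cells above each bar. The 3 bins from 4 UMIs upward hold the responding cells, 152 after TAK-981 and 13 after vehicle, and 29 TAK-981 cells and 1 vehicle cell held 30 or more.

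The response was uneven among responding cells. TAK-981 responding cells held from 4 to 175 response UMIs, with a median of 8 and quartiles of 5 and 16.25. The 13 vehicle responding cells held from 4 to 38, with a median of 6. Of the TAK-981 responding cells, 86 held 4 to 9 response UMIs, 37 held 10 to 29 and 29 held at least 30. The 10 strongest cells carried 1188 of the 2979 response UMIs of the 152 cells (39.9%). Responding cells held 84.7% of all response UMIs of A20 cells after TAK-981 (2979 of 3519) and 26.5% after vehicle (115 of 434).

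The 7 genes chose the cells, so their values are a description. Isg15 encodes a ubiquitin-like protein that is joined to other proteins during the response and is also secreted. It gave 1344 UMIs in the TAK-981 responding cells and was seen in 140 of 152 (92.1%), with a median of 4 and a highest value of 71 UMIs per cell. Usp18 encodes the protease that removes ISG15 and blocks signalling at IFNAR2. It gave 923 UMIs in 135 of 152 cells (88.8%), with a median of 3 and a highest value of 53 per cell. Both genes were seen together in 124 cells, so the pair carried the signature in most responding cells.

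The other 5 genes were seen in fewer responding cells of the TAK-981 library. Oasl1, an oligoadenylate synthetase-like protein known to hold back translation of Irf7 RNA, had 171 UMIs in 60 cells. Rtp4, which encodes a receptor transporter protein, had 166 UMIs in 56 cells. Mx1, which encodes a dynamin-like GTPase, had 127 UMIs in 28 cells. Ifit1 and Ifit3, which encode tetratricopeptide proteins that bind viral RNA or partner such proteins, had 126 UMIs in 42 cells and 122 UMIs in 26 cells. All 42 cells with Ifit1 also had Isg15. Of the 152 cells, 91 had none of Ifit1, Ifit3 and Mx1, 35 had 1 of them, 17 had 2 and 9 had all 3. Only 8 TAK-981 responding cells had all 7 genes, while 48 cells had 2 of the 7.

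In the 13 vehicle responding cells Usp18 gave 48 UMIs in 13 cells and Isg15 gave 48 UMIs in 10 cells. Oasl1 gave 14 UMIs in 4 cells, Rtp4 4 UMIs in 2 cells and Ifit1 1 UMI in 1 cell. Ifit3 and Mx1 gave 0 UMIs in these 13 cells. Usp18 and Isg15 thus stood for most of the 115 response UMIs of these cells.

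The promoter sequences of 4 of the 7 genes were in the RefSeq table for GRCm38.p6, as windows from 250 bases before to 50 after the start. The core of the interferon-stimulated response element was searched as GAAANNGAAA on both strands, which reads TTTCNNTTTC on the other strand, with overlapping matches counted. Isg15, Ifit1 and Ifit3 held it and Oasl1 did not. The stretches below show the matches of the genes that define the cells, with those of Gbp2, a gene higher in responding cells, and Rsad2, a gene at 0 UMIs in them. Each is written 5' to 3' on the gene's strand, with matched bases in capitals.
Isg15, chr4:156200863-156200908, minus strand: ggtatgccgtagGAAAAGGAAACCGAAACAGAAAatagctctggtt
Ifit1, chr19:34640773-34640825, plus strand: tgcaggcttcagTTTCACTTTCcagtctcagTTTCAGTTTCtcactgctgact
Ifit3, chr19:34583361-34583428, plus strand: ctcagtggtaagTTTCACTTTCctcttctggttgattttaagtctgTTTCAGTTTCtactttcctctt
Gbp2, chr3:142620592-142620625, plus strand: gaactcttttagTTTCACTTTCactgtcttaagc
Rsad2, chr12:26456551-26456584, minus strand: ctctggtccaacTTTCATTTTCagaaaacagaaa

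The Isg15 run holds 3 overlapping matches that begin 78 to 66 bases before the start of the gene. Ifit1 has a match 104 and another 85 bases before its start, and Ifit3 has matches 156 and 122 bases before its start. Gbp2 has 1 match 59 bases and Rsad2 1 match 120 bases before the start. Over all RefSeq mouse windows, 1131 of 32851 (3.44%) held the letters. Among genes at least 2-fold higher in TAK-981 responding cells, described next, 15 of the 75 with a window held them (20%), against 186 of 5243 measured genes with a window (3.55%). Of the 15 higher genes named by rule, 10 had a window and 3 of these held the letters, namely Trim30a, Eif2ak2 and Gbp2. Ifi47, Irf7, A530040E14Rik, Isg20, Trafd1, Herc6 and Sp100 had none in the window. A match is a description of letters in this window and not a bound site.

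Outside the 7 genes, 6786 genes averaged at least 10 CPM, or UMIs per 1000000 UMIs, over the A20 cells of the 2 libraries and were compared on summed UMIs. In the TAK-981 library 102 of them were at least 2-fold higher in responding than in zero cells (1.5% of genes) and 8 were at least 2-fold lower (0.118%). With the same cells thinned to 4000 UMIs each, which leaves fewer counts per gene, 214 were higher and 140 lower, and with a filter of 30 CPM 35 were higher and 4 lower. The median of all 6786 log2 ratios was 0.13, to be kept in mind for small differences. Of the 102 genes, 39 belonged to the interferon, GTPase or MHC class I lists and 63 to none of these. The other type I interferon response genes, 88 listed without the 7, had 36 measured: 30 were at least 2-fold higher, 0 were lower, and all 36 ratios lay above 0. Their median log2 ratio was 1.63, or 3.09-fold. Summed over the 84 listed genes found in the files, measured or not, the level was 6912 CPM in responding cells and 2908 CPM in zero cells of the TAK-981 library.

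Regulators of the response were among these genes. Irf7, the transcription factor that amplifies type I interferon production, gave 1071 UMIs in responding cells (310 CPM) and 610 in zero cells (28.7 CPM), a ratio of 10.8 (9.76 to 11.9). It was seen in 139 of the 152 responding cells, at a median of 4.5 and a highest value of 44 UMIs per cell. Irf9, part of ISGF3, was 2.07-fold higher in responding cells. Trim30a, a TRIM family protein known to hold back inflammatory signalling in mice, stood at 81.0 CPM in responding and 6.92 CPM in zero cells, a ratio of 11.7 (9.56 to 14.4). Thus all of these regulators lay above the 2-fold line.

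Antiviral effectors followed the same direction. Zbp1, a sensor of Z-form nucleic acid, stood at 108 CPM in responding and 6.73 CPM in zero cells, a ratio of 16.1 (13.2 to 19.6), and was seen in 108 of the 152 responding cells. Isg20, an exonuclease that degrades RNA, was 9.83-fold higher, and Eif2ak2, the kinase PKR that halts translation on double-stranded RNA, was 6.45-fold higher. The ADP-ribosyltransferase Parp14 was 7.26-fold higher and Herc6, the ligase that attaches ISG15 in mice, was 5.76-fold higher. Tor3a was 8.93-fold, Trafd1 8.33-fold and the nuclear body protein Sp100 4.82-fold higher. Bst2, the tetherin that holds virions at the cell surface, stood at 538 CPM in responding and 179 CPM in zero cells, a ratio of 3.01. Ifi27l2a was 4.90-fold higher, with 27% of its UMIs in 1 responding cell. At the low end of the list, Cnp was 1.47-fold and Ly6e 1.23-fold higher.

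Response genes under the 10 CPM limit were not counted among the 102, but several had large ratios. Ifit2, a relative of Ifit1, gave 100 UMIs in responding and 18 in zero cells of the TAK-981 library, a ratio of 34.2 (20.5 to 60.0). Xaf1 gave 261 UMIs in responding and 106 in zero cells, a ratio of 15.1. Pml, whose protein is SUMOylated and builds nuclear bodies, gave 195 UMIs in responding and 126 in zero cells, a ratio of 9.52. The summed UMIs behind these counts were 3456541 in responding and 21253081 in zero cells, so equal levels would give zero cells the larger count.

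Interferon-inducible GTPases attack the membranes that enclose intracellular pathogens. All 5 measured genes of this list, of 20 listed, were at least 2-fold higher in TAK-981 responding cells, with a median log2 ratio of 2.17. Over all listed GTPases the summed levels were 574 CPM in responding and 87.2 CPM in zero cells. Ifi47 had the largest ratio of the genes named here by the lower bound of its interval. It gave 473 UMIs in responding cells (137 CPM) and 77 in zero cells (3.62 CPM), a ratio of 37.8 (29.6 to 48.7). It was seen in 90 of 152 responding cells, with a median of 1 and a highest value of 29 UMIs. Gbp2 gave 271 UMIs in responding cells (78.4 CPM) and 286 in zero cells (13.5 CPM), a ratio of 5.83 (4.92 to 6.90), and was seen in 68 responding cells. Gbp4 was 4.50-fold, Gbp9 3.80-fold and Gbp3 2.51-fold higher.

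**Figure D2:**
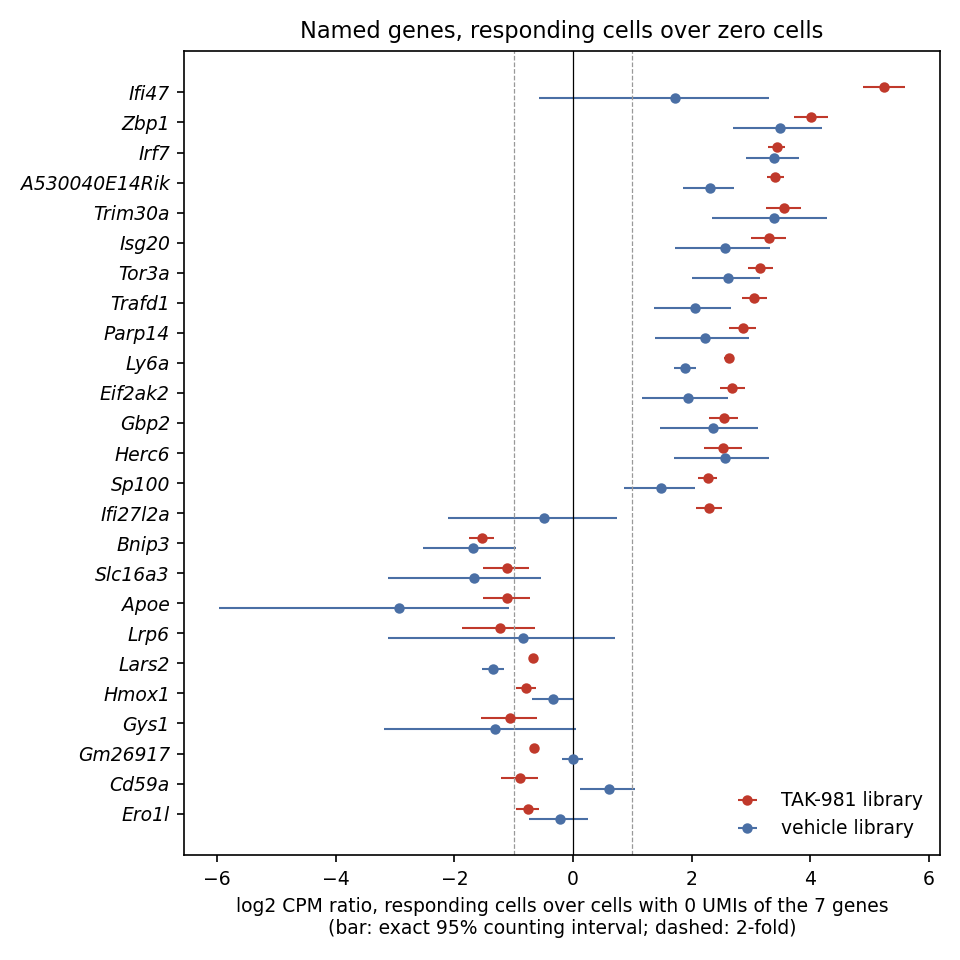
Log2 ratio of CPM in responding cells over zero cells (horizontal axis) for the 15 higher and 10 lower genes named by rule in the TAK-981 library, with points for the TAK-981 and vehicle libraries and bars for the 95% exact counting interval. Ifi47 has the highest TAK-981 value at a log2 ratio of 5.24 and Bnip3 the lowest at -1.54, and the vehicle bars, which rest on 13 responding cells, are the wider ones.

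Genes of antigen presentation moved less. MHC class I molecules show peptides to CD8 T cells, and TAP carries those peptides into the endoplasmic reticulum. Of 19 measured genes of this list, 4 were at least 2-fold higher in TAK-981 responding cells and 0 were lower, while all 19 ratios lay above 0, with a median log2 ratio of 0.61. The 4 genes, of which all but Tap1 were singled out after their values were seen, were H2-T23, Tap1, H2-M3 and H2-T22. Tap1 gave 698 UMIs in responding and 1482 in zero cells, a ratio of 2.90 (2.64 to 3.17). B2m, the light chain of every class I molecule, was 1.35-fold (1.30 to 1.39), H2-K1 1.38-fold and H2-D1 1.39-fold higher. Summed over all listed class I genes, responding cells stood at 7272 CPM and zero cells at 4934 CPM. MHC class II genes, which present peptides to CD4 T cells, had 9 measured genes, of which 0 passed 2-fold in either direction, with a median of 0.07. Cd74, the class II invariant chain, had a ratio of 1.05, and H2-Aa one of 0.906.

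Genes outside the interferon lists also stood apart. Ly6a, the GPI-anchored surface protein Sca-1 that interferon is known to induce in mouse lymphocytes, stood at 892 CPM in responding and 145 CPM in zero cells, a ratio of 6.17 (5.87 to 6.49). It was seen in 140 of the 152 responding cells, with a median of 12 and a highest value of 250 UMIs. A530040E14Rik, an uncharacterised transcript, was 10.6-fold higher (9.65 to 11.7). The next 2 genes, both surface ligands read by immune cells, were picked after their values were seen. Cd274, which encodes PD-L1, the ligand that inhibits T cells, stood at 52.1 CPM in responding and 21.3 CPM in zero cells, a ratio of 2.45 (2.05 to 2.92). Cd47, the signal that holds back phagocytosis, had a ratio of 2.68 (2.46 to 2.92).

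The receptor and its feedback gave a mixed picture. Of 15 measured genes for interferon receptors and JAK-STAT signalling, only Socs1 was at least 2-fold higher and 0 were lower, with a median log2 ratio of 0.07 in the TAK-981 library. Socs1, which inhibits JAK kinases, gave 157 UMIs in responding and 339 in zero cells, a ratio of 2.85. Ifnar1 had a ratio of 0.831 (0.615 to 1.10) and Ifnar2 one of 0.988, so receptor RNA was not set apart at this depth. Among 7 measured interferon regulatory factors outside the response list, Irf1 was at least 2-fold higher at a ratio of 2.60, while Irf5 (1.70), Irf2 (1.55) and Irf8 (1.41) lay between 1 and 2. Of 7 nucleic acid sensors and adaptors only Myd88 passed 2-fold, and the median was 0.26. Ifng and the listed Ifna genes gave 0 UMIs in the responding cells.

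SUMO pathway genes, the target of the drug's enzyme, did not separate the cells. Of 23 measured genes, 0 were 2-fold higher and 0 lower in TAK-981 responding cells, and the median log2 ratio was 0.07. Sumo2 had a ratio of 1.03. Among 14 NF-kB genes Cd40, a costimulatory receptor of B cells, and Nfkbie, an inhibitor of NF-kB, were at least 2-fold higher and 0 lower (median 0.47), and among 13 AP-1 and immediate early genes 0 passed in either direction (median 0.21). Among 16 measured genes of the integrated stress response only Chac1 passed (median 0.29), and among 18 heat shock and chaperone genes the median was 0.02. The chemokine Cxcl10, which draws CXCR3-bearing T cells, was under the 10 CPM limit and gave 188 UMIs in 24 responding cells and 117 UMIs in zero cells, a ratio of 9.88, with 26% of the responding UMIs in 1 cell. Lta, which encodes lymphotoxin alpha, was 2.43-fold higher. Fas, the death receptor and 1 of 16 measured cell death genes, was 2.02-fold higher.

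Hypoxia and glycolysis genes were lower in responding cells of the TAK-981 library. These genes are known targets of HIF-1 and mark poorly perfused tumour regions. All 20 measured genes had ratios below 0 on the log2 scale in the TAK-981 library, 2 of them, Bnip3 and Ndrg1, at least 2-fold lower and 0 higher, and the median was -0.50. Levels summed over all 23 listed genes were 7014 CPM in responding and 9399 CPM in zero cells. Bnip3, a mitophagy receptor induced by hypoxia, gave 209 UMIs in responding cells (60.5 CPM) and 3733 in zero cells (176 CPM), a ratio of 0.344 (0.298 to 0.396). It was seen in 50 of 152 responding and 533 of 1223 zero cells. Ero1l, an oxidase of the endoplasmic reticulum, had a ratio of 0.587, Aldoa one of 0.670 and Ldha one of 0.741. Against 152 zero cells matched for UMI total, the list's median was -0.28, with 19 of 20 genes below 0.

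Other lower genes of the TAK-981 library, outside that list, were Slc16a3, the lactate exporter MCT4, at a ratio of 0.462, Lrp6, a Wnt co-receptor, at a ratio of 0.426, Gys1, the glycogen synthase, at 0.478, Cd59a, a complement inhibitor, at 0.539, and Hmox1, the heme oxygenase, at 0.579. Lars2, the mitochondrial leucyl-tRNA synthetase, stood at 0.63. Apoe, an apolipoprotein of macrophages, stood at 0.464, with 45% of the responding cells' UMIs in 1 cell.

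The cell cycle and B cell genes were close to those of zero cells in the TAK-981 library. Of 26 measured G1/S and replication genes 0 passed 2-fold, with a median log2 ratio of 0.28 and 24 ratios above 0, and the median was 0.10 against depth-matched zero cells. Of 25 G2/M genes 0 passed, with a median of 0.23, and of -0.03 against depth-matched zero cells. Mki67 had a ratio of 1.03 and Top2a one of 0.971. Of 19 B cell genes 0 passed, with a median of 0.08; Cd79b had a ratio of 0.911 and Ms4a1, which encodes CD20, one of 1.24. Plasma cell genes had a median of 0.11 over 7 genes, and antioxidant genes one of -0.15 over 15.

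**Figure D3:**
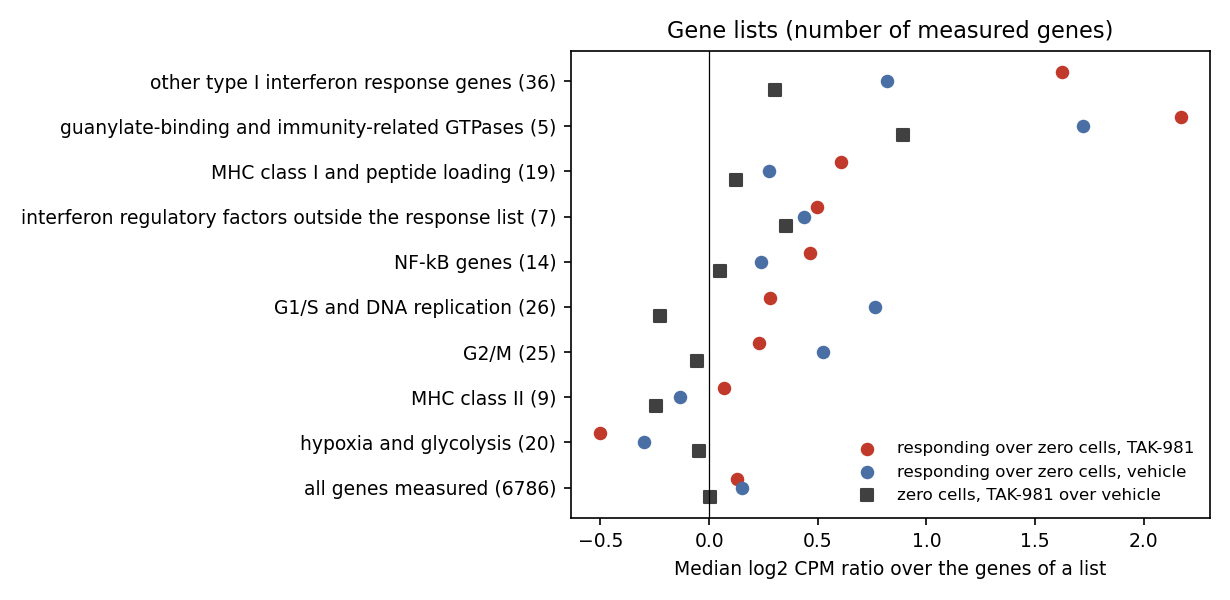
Median log2 CPM ratio (horizontal axis) over the measured genes of each list (vertical axis, number of genes in parentheses), for responding over zero cells of the TAK-981 library, responding over zero cells of the vehicle library, and TAK-981 zero cells over vehicle zero cells. Interferon genes have responding-over-zero medians of 1.63 for TAK-981 and 0.82 for vehicle, and hypoxia genes have -0.50 for TAK-981 and -0.30 for vehicle; at 4000 UMIs per cell the interferon medians are 1.69 for TAK-981 and 1.42 for vehicle.

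The level of other interferon genes was higher in each further bin of response UMIs. Summed over the 84 listed genes, TAK-981 cells stood at 2908 CPM with 0 response UMIs, 3405 with 1, 4066 with 2 to 3, 5394 with 4 to 9, 6579 with 10 to 29 and 10668 with 30 or more. The same bins of vehicle cells stood at 3017, 3303, 3757, 4438, 5209 and 8559 CPM, the last 2 bins resting on 3 cells and 1 cell. The TAK-981 and vehicle values lay close below 4 response UMIs. Irf7 stood at 28.7, 40.5, 101, 164, 295 and 651 CPM over the 6 TAK-981 bins, and Ifi47 at 3.62, 7.90, 14.5, 73.0, 114 and 306 CPM. In the vehicle library Ifi47 stood at 2.29, 7.58, 7.03, 9.86, 0 and 0 CPM, so the order held for the list sum and not for this gene. Median depth was 18025 UMIs with 1 response UMI, 18952 with 2 to 3 and 17645 with 4 to 9 in the TAK-981 library, where Ifi47 stood at 14.5 CPM just under the threshold of 4 response UMIs and 73.0 CPM just over it. Whether the threshold separates types of cells was not tested.

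Cell by cell, TAK-981 responding cells held a median of 59.1 UMIs of the other interferon genes per 10000 UMIs, from 26.7 to 270, against a median of 28.0 in zero cells. Vehicle responding cells held a median of 50.6 against 28.9 in zero cells. The 75th percentile of zero cells was passed by 143 of 152 TAK-981 responding cells (94.1%) and by 12 of 13 vehicle responding cells. For the GTPases the TAK-981 medians were 3.77 in responding and 0.300 in zero cells, and for MHC class I 72.6 in responding and 46.3 in zero cells. For hypoxia genes they were 60.0 in responding and 76.3 in zero cells, and 14 of the 152 responding cells passed the 75th percentile of zero cells. In the vehicle library the hypoxia medians lay close together, at 87.5 in responding and 88.8 in zero cells. There 3 of the 13 responding cells passed the 75th percentile of vehicle zero cells.

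**Figure D4:**
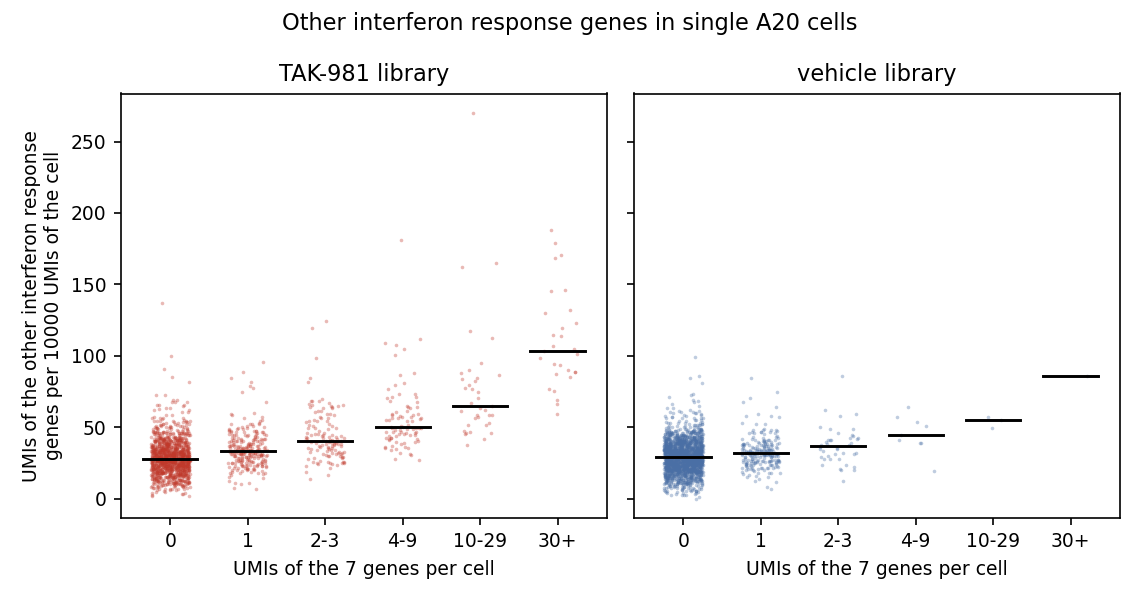
UMIs of the other interferon genes per 10000 UMIs of a cell (vertical axis) by the cell's number of response UMIs (horizontal axis, low to high), TAK-981 on the left and vehicle on the right, with 1 point per cell and a black line at the median. Medians run over the 6 bins 28.0 to 103 for TAK-981 and 28.9 to 85.6 for vehicle.

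The 13 responding cells of the vehicle library shared part of this profile. With so few cells, 386 of 6786 genes were at least 2-fold higher (5.69%) and 278 at least 2-fold lower (4.1%) than in vehicle zero cells, and the median of all log2 ratios was 0.15. With median-of-ratios scaling the split was 233 higher and 379 lower. Of the 36 other interferon genes 17 were at least 2-fold higher and 0 lower, with 33 ratios above 0 and a median of 0.82. That median was 1.42 with cells thinned to 4000 UMIs (21 of 32 genes at least 2-fold higher), against 1.69 in the TAK-981 library treated the same way. It was 1.21 with each cell of equal weight and 1.10 against depth-matched zero cells. Over all listed genes the sum was 4865 CPM in responding and 3017 CPM in zero cells. Zbp1 gave 18 UMIs in responding and 179 in zero cells, a ratio of 11.3 (6.53 to 18.3), and Ly6a gave 254 in responding and 7666 in zero cells, a ratio of 3.71 (3.26 to 4.21). Ifi27, an interferon-induced mitochondrial protein, gave 67 UMIs in responding and 1082 in zero cells, a ratio of 6.94 (5.34 to 8.88). Irf7 had a ratio of 10.4, but 1 cell held 56% of its responding UMIs. Ifi47 gave 3 UMIs in 1 of the 13 cells.

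Replication genes were the other feature of vehicle responding cells. Of the 26 G1/S genes 9 were at least 2-fold higher and 0 lower, all 26 ratios lay above 0, and the median was 0.76, or 0.70 against 13 depth-matched zero cells. Summed levels were 4145 CPM in responding and 2372 CPM in zero cells of the vehicle library. Hist1h2ae, a replication-linked histone, gave 223 UMIs in responding and 6780 in zero cells, a ratio of 3.68, and was 2.27-fold higher in the TAK-981 library. Asf1b, a histone chaperone, had a ratio of 2.85, Tcf19 one of 3.91, Cenpn, a centromere protein, one of 3.89, and Gins3, part of the replicative helicase, one of 4.31. In the TAK-981 library the ratios of these 4 genes were 1.43, 1.60, 1.35 and 2.74. Of 25 G2/M genes 2 passed, with a median of 0.53. The part of this difference in the other vehicle ratios was not tested. Bnip3 stood at a ratio of 0.31 on 15 responding UMIs, and 18 of 20 hypoxia genes lay below 0, with a median of -0.30. At equal depth of 4000 UMIs the hypoxia median was -0.17, with 11 of 18 genes below 0. Cell by cell, the vehicle medians of this list, given above, were close in responding and zero cells.

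Genes at least 2-fold higher in responding cells of both libraries numbered 53, which is 52.0% of the 102 TAK-981 genes and 13.7% of the 386 vehicle genes. The lower genes shared 6, which is 75% of the 8 and 2.16% of the 278.

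TAK-981 responding cells were next set against vehicle responding cells. At least 2-fold higher were 435 genes (6.41%) and at least 2-fold lower 138 (2.03%), numbers that rest on the 13 vehicle cells. With the same cells thinned to 4000 UMIs, 488 were higher and 794 lower, so the balance of the split turned. Of the 36 other interferon genes 18 were at least 2-fold higher and 0 lower, with a median log2 ratio of 1.03. Over all listed genes the summed levels were 6912 CPM in TAK-981 and 4865 CPM in vehicle responding cells. Ifi47 had a ratio of 18.1 (6.16 to 88.1), Ifi27l2a one of 7.23, Gbp4 one of 5.07, Irf7 one of 2.56 and Ly6a one of 1.39. G1/S genes ran the other way, with 8 of 26 at least 2-fold lower, a median of -0.66 and levels of 2481 CPM in TAK-981 and 4145 CPM in vehicle responding cells. Flt3, a receptor of early blood cells, stood at a ratio of 0.368 and Fos, an AP-1 subunit, at 0.309. The 2 sets were selected by the same threshold at different depths, so the ratio also compares how far cells lay past it.

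Between zero cells of the 2 libraries, 16 genes were at least 2-fold higher in TAK-981 zero cells (0.236%) and 3 lower (0.0442%). Zero cells have far more summed UMIs than the 13 vehicle responding cells, so these counts are not compared with those above. Of the 36 other interferon genes 3 were at least 2-fold higher in TAK-981 zero cells, 28 ratios lay above 0 and the median was 0.30. The sum over all listed genes ran the other way, at 2908 CPM in TAK-981 and 3017 CPM in vehicle zero cells. Irf9 had a ratio of 3.05, on 584 UMIs in TAK-981 and 400 UMIs in vehicle zero cells, Trim30a one of 2.61 and Irf7 one of 2.48. Irgm1, an immunity-related GTPase, had one of 3.08. Thus cells without a single response UMI in the TAK-981 library also held more RNA of these regulators than vehicle zero cells did. A count of 0 is met more easily in a shallow cell. Zero cells had a median total of 15002 UMIs for TAK-981 and 20920.5 for vehicle, so the 2 sets are not equally strict. The part of depth in these ratios was not tested. Bcl2l11, the pro-apoptotic BIM, had a ratio of 2.07. The 3 lower genes were Fos at a ratio of 0.416 and Anxa10 and Glrx, which are named after their values were seen.

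The A20 label was checked on markers of other cells. All 9 B cell markers were seen in TAK-981 responding cells, at a summed 1649 CPM against 1603 CPM in zero cells, and at 1469 CPM in responding and 1554 CPM in zero cells of the vehicle library. Rhox5, a homeobox gene seen across A20 cells here, was present in 115 of 152 TAK-981 responding cells, at a ratio of 0.971. Cd3d, Cd3e, Cd3g and Lyz2 were 0 by the rule, and Trac, Trbc1, Trbc2, Cd4, Cd8a, Cd14, Csf1r, C1qa, C1qb, C1qc, Adgre1, Ms4a7 and Itgam were also at 0. Of 10 T cell markers 2 had 1 UMI each, and of 14 monocyte and macrophage markers 5 had a UMI, with 30.1 CPM in responding and 46.0 CPM in zero cells of the TAK-981 library and 12.6 CPM in responding and 48.6 CPM in zero cells of the vehicle library. Of 75 natural killer marker UMIs, 74 lay in 1 TAK-981 responding cell (21.7 CPM in responding and 5.46 CPM in zero cells). The plasmacytoid dendritic list stood at 741 CPM in responding and 359 CPM in zero cells of the TAK-981 library, through Bst2 and Tcf4, with Siglech and Ccr9 at 0. In the vehicle library it stood at 423 CPM in responding and 331 CPM in zero cells. The dendritic list stood at 36.2 CPM in responding and 45.0 CPM in zero cells for TAK-981, and at 98.3 CPM in responding and 37.6 CPM in zero cells for vehicle. In responding cells of both libraries it was Flt3 alone, with Xcr1, Clec9a, Cd209a, Itgax and Ccl22 at 0. Flt3 was also seen in 42.5% of TAK-981 and 47.0% of vehicle zero cells. Resting B cell markers stood at 13.6 CPM in responding and 15.8 CPM in zero cells for TAK-981. The part of these markers in the other differences was not tested. Xist, which marks cells of a female host, was seen in 2 of 152 responding and 5 of 1223 zero cells of the TAK-981 library, and in 0 of 13 responding (which allows a share of up to 23.1%) and 21 of 1910 zero cells of the vehicle library. Cells with a Xist UMI, or at least 2 UMIs of the monocyte and macrophage, T cell, natural killer or neutrophil list, are here called host-marker cells. Leaving them out removed 11 of 152 responding cells (7.24%) and 122 of 1223 zero cells (9.98%) of the TAK-981 library. The median log2 ratio of the other interferon genes was then 1.61. The monocyte and macrophage list, which includes Apoe and Cd68, alone reached 2 UMIs in 10 of the 152 cells. Apoe was seen in 11.8% of responding and 18.1% of zero cells of the TAK-981 library, and Cd68 in 9.21% and 7.44%. A host-marker cell need therefore not be a host cell, and the origin of these UMIs was not tested. Resting B cell and dendritic markers were not part of this filter.

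Host cells of the same TAK-981 tumour sample were set beside the responding A20 cells. Cells with Lyz2 and without Cd79a or CD3 UMIs, 38 for TAK-981 and 39 for vehicle, reached 4 response UMIs in 33 TAK-981 cells (86.8%, 71.9 to 95.6%) and 12 vehicle cells (30.8%, 17.0 to 47.6%), at median totals of 8183 UMIs for TAK-981 and 9706 for vehicle. Cells with CD3 and without Cd79a or Lyz2 did so in 21 of 37 TAK-981 cells (56.8%) and 2 of 49 vehicle cells (4.08%), at median totals of 6698 UMIs for TAK-981 and 8388 for vehicle. At 4000 UMIs per cell the counts were 33 of 38 TAK-981 and 5 of 39 vehicle cells with Lyz2, and 18 of 37 TAK-981 and 0 of 49 vehicle cells with CD3. Responding A20 cells were thus a small share of A20 cells, while most Lyz2-positive cells of the TAK-981 library met the same rule at lower depth.

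Several interferon genes of Lyz2-positive cells were at or near 0 in responding A20 cells. Rsad2, the antiviral enzyme viperin whose promoter match is printed above, gave 0 UMIs among the 3456541 of the 152 responding cells, against 610 UMIs (1782 CPM) in 38 Lyz2-positive cells. Set to the floor of 3 UMIs over the group (0.868 CPM), Rsad2 was 2053-fold lower in responding A20 cells than in Lyz2-positive cells. Its interval begins at 1665-fold. Cmpk2, a nucleotide kinase and neighbour of Rsad2, gave 0 UMIs in responding A20 cells, against 459 CPM in Lyz2-positive cells. It was 528-fold lower at the floor, with an interval that begins at 425-fold. Cxcl9, a chemokine, gave 0 UMIs in responding A20 cells, against 380 CPM in Lyz2-positive cells. It was 438-fold lower at the floor, with an interval that begins at 351-fold. Ms4a4c gave 5 UMIs (1.45 CPM) in responding A20 cells and stood at 1577 CPM in Lyz2-positive cells. Slfn5 stood at 1.45 CPM in responding A20 and 578 CPM in Lyz2-positive cells, Ifi44 at 3.76 CPM in responding A20 and 497 CPM in Lyz2-positive cells. Isg15 stood at 389 CPM in responding A20 and 3704 CPM in Lyz2-positive cells, and Ifit1 at 36.5 CPM in responding A20 and 833 CPM in Lyz2-positive cells. Both are genes of the rule, which chose the responding A20 cells but not the Lyz2-positive cells. Zero cells of the same library held 2 Rsad2 UMIs, which is under the floor of 3.

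Other genes were closer to the host cells, or higher, in responding A20 cells. Usp18, another gene of the rule that chose only the A20 cells, stood at 267 CPM in responding A20 and 415 CPM in Lyz2-positive cells. Ly6a stood at 892 CPM in responding A20 cells, 32.1 CPM in Lyz2-positive and 775 CPM in CD3-positive cells, a ratio over Lyz2-positive cells of 27.8 (15.5 to 55.7). Irf7 stood at 310 CPM in responding A20 cells, 1627 CPM in Lyz2-positive and 297 CPM in CD3-positive cells. The profile of responding A20 cells was thus not that of Lyz2-positive cells scaled by a constant. Rsad2 was 2053-fold lower at the floor, with an interval that begins at 1665-fold, and Ly6a was 27.8-fold higher.

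**Figure D5:**
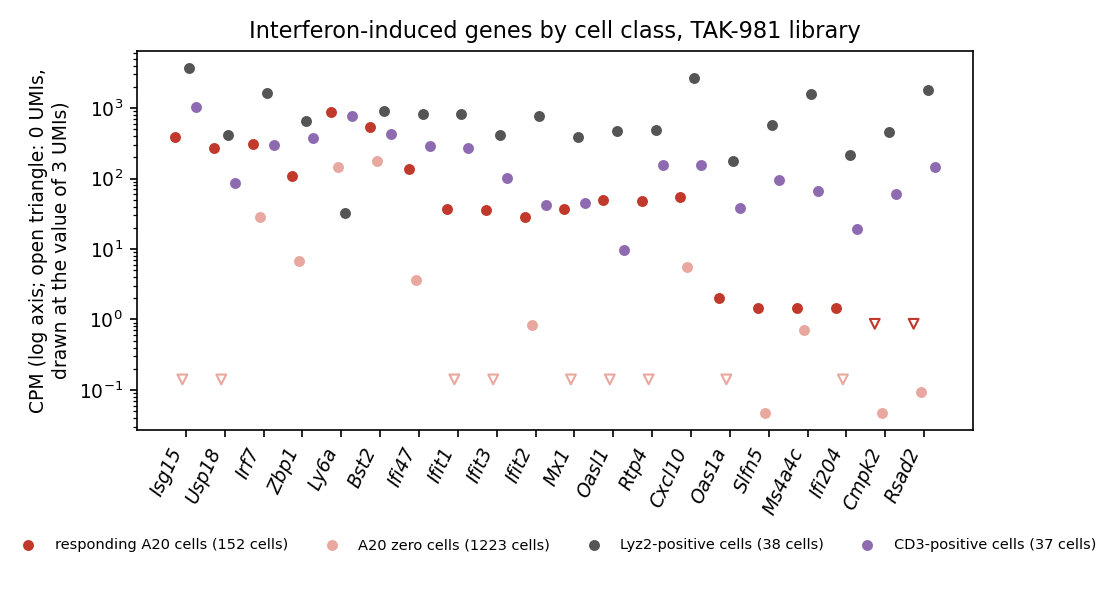
CPM on a log axis (vertical) of named interferon genes (horizontal axis) in responding A20 cells, zero cells, Lyz2-positive cells and CD3-positive cells of the TAK-981 library, with an open triangle where a class had 0 UMIs, drawn at the value of 3 UMIs. Rsad2 has 0 UMIs in responding A20 cells and 1782 CPM in Lyz2-positive cells, while Ly6a stands at 892 CPM in responding A20 and 32.1 CPM in Lyz2-positive cells.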

How the data were processed

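The deposited matrices hold whole-number UMI counts per gene and barcode of 2 libraries, 1 per arm, made by the authors with Cell Ranger 2.1.1 and Seurat 2, per the submitters' processing notes. Build and annotation: not given in the sources used here. Library totals were 37470319 UMIs for TAK-981 and 57471750 for vehicle, with medians of 11840.5 and 19608 per barcode. No doublet caller was run.

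Cells and gene lists were chosen with earlier results of these data known. UMIs were summed per class of cells, and CPM ratios carry exact conditional binomial (Clopper-Pearson) intervals at 95%. A group at 0 was set to 3 counts, and the ratio then given at this floor. Genes at 10 CPM or more were compared, and at least 2-fold was counted, with no test. The ratio calculation was tested on simulated data.

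Named genes were, per library, the 15 with the highest lower bound and the 10 with the lowest upper bound, seen in at least 10% of cells and with at most 33.3% of UMIs in 1 cell, plus up to 4 genes per list and up to 6 response genes under 10 CPM. Others are said to be picked after their values were seen. Promoters came from RefSeq windows of GRCm38.p6, used by gene symbol only. Alternatives covered the threshold, depth, cell weights, scaling, gene filter and host-marker cells. Python 3.11.15, numpy 2.4.6, scipy 1.17.1 and pandas 2.3.3 were used.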

Additional observations from a re-analysis of the deposited data

How the results depend on the processing

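The share of responding cells stayed higher in the TAK-981 library under all 7 alternatives. It moved to 10.7% of TAK-981 cells at 3 or more response UMIs, 5.99% at 6 or more, 5.30% without Isg15 in the sum, and 2.34% for TAK-981 and 0.0913% for vehicle with cells thinned to 4000 UMIs. In the TAK-981 library the median log2 ratio of the 36 other interferon genes stayed between 1.50 and 1.74 under 9 alternatives, while single counts moved. With thinned cells 214 genes were at least 2-fold higher and 140 lower, and with a 30 CPM filter 35 were higher and 4 lower. Lower genes numbered 15 with each cell of equal weight and 17 without cells over 2 times the median UMI total. In the vehicle library that median was 1.42 with thinned cells, 1.21 with equal weights and 1.10 against depth-matched zero cells, against 0.82. Higher vehicle genes numbered 1106 with thinned cells, 966 against depth-matched zero cells, 664 at 6 or more response UMIs, 117 with the 30 CPM filter and 233 with median-of-ratios scaling, and lower ones 494 at 6 or more and 47 with the filter. With thinned cells 794 genes were lower and 488 higher in TAK-981 than in vehicle responding cells, and 28 were higher and 5 lower between zero cells. Apoe reversed in the vehicle library, to a log2 ratio of 0.22, without host-marker cells. Apoe is itself counted in the list that defines host-marker cells. Leaving these out removed 235 of 1910 vehicle zero cells and 0 of 13 vehicle responding cells, so this ratio is shaped by the filter. The cause of the other changes was not tested. Of 212 values of the 25 named TAK-981 genes 156 kept their size, 56 moved and 0 reversed, and of 189 vehicle values 153 kept it and 35 moved.

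The alternatives without deep cells and without the 10 strongest responding cells were chosen after seeing the data. No paired analysis was possible because each arm is 1 library, and leaving out a replicate would leave an arm empty. The 13 vehicle responding cells limit every vehicle ratio: single cells held a large share of the UMIs of Irf7 and Ifi47. Thinned cells give fewer UMIs per gene, and with them more genes passed 2-fold.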
